A study of Homo sapiens with 6 samples.

Results

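Membrane-bound mucins were read here through all probe sets that the platform annotation assigns to MUC1, MUC4, MUC13, MUC15, MUC16 or MUC20. These were 18 of 54613 probe sets and 6 of 19775 named genes, and 0 probe sets listed one of these mucins together with another symbol. The 6 arrays were of MCF-10A, a human breast epithelial line that grows indefinitely but is not transformed. Cells carried either a retrovirus with human CRB3, myc-tagged at its amino terminus (CRB3-expressing, 3 arrays), or the pNG vector (vector control, 3 arrays). The methods describe moving the CRB3 constructs from pNG into pLNCX2. Which backbone the CRB3-expressing arrays carried is not stated, so it may differ from that of the control. All cells were selected after infection, with a drug not named for these cultures. They were lysed as growing monolayers at 70% confluence in their normal growth medium. CRB3 is a small transmembrane protein of the Crumbs polarity complex at the apical membrane, and the comparison asks which transcripts differ when it is made in excess.

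Membrane-bound mucins are long glycoproteins whose extracellular part is densely decorated with O-linked sugars and whose transmembrane segment anchors them in the apical surface. They shield and lubricate epithelia, and the short cytoplasmic tails of several bind signalling proteins. MUC1 is the mucin best known from the mammary gland, where it lies on the luminal side of the ducts and in the milk fat globule membrane. MUC4 associates with ERBB2, MUC16 carries the tumour antigen CA125 and binds mesothelin, MUC20 associates with the receptor MET, MUC13 is known mainly from the gut, and MUC15 was described from the milk fat globule membrane.

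MUC1 and MUC16 were the members whose difference passed the test, MUC16 with a smaller change than the fold threshold. For that reason their promoters are shown, each as the 250 bases before the start of transcription in RefSeq on GRCh38.p14, with GGGCGG and TATAAA, searched on both strands, in capitals. Both genes lie on the minus strand, MUC1 at chr1:155192916-155193165 and MUC16 at chr19:9065752-9066001 for these windows, and each sequence is written in the direction of transcription. The table holds 2 starts for each gene and the first listed is shown. The other lies 6 bases downstream for MUC1 and 55342 bases downstream for MUC16.
MUC1: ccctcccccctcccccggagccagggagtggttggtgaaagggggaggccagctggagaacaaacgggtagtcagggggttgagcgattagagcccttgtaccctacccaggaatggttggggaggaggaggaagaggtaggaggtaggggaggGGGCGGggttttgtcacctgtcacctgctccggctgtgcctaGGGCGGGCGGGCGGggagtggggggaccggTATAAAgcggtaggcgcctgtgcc
MUC16: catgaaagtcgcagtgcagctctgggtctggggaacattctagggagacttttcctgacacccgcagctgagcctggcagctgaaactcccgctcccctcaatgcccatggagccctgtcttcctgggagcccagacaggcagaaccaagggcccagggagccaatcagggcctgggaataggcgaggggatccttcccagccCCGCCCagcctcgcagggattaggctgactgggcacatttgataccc

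The MUC1 window held 4 copies of GGGCGG, the GC box, of which 3 overlap one another, and 1 copy of TATAAA. The MUC16 window held 1 GC box, on the opposite strand, and 0 copies of TATAAA. Of 27305 promoters of the same length, 42.3% held GGGCGG and 11.1% held TATAAA. TTCNNNGAA, a pattern of STAT sites found in 6.78% of the promoters, occurred 0 times in both windows, while GGAA, the core of ETS sites (92.8% of promoters), and CANNTG, the E-box (62.2%), occurred 2 and 3 times in the MUC1 window and 5 and 3 times in the MUC16 window. Of the other members with a promoter in the table, MUC4 had 1 GC box, 1 TTCNNNGAA and 7 GGAA, and MUC13 had 0 GC boxes, 4 GGAA and 2 CANNTG. In the window of the second start, MUC1 had the same counts, while MUC16 had 0 GC boxes, 3 GGAA and 2 CANNTG. These are matches of letters, and no binding was measured. MUC15 and MUC20 had no entry.

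MUC1 was 3.78-fold above the vector control with CRB3 expressed, in its brightest probe set, 213693_s_at (95% interval 3.39 to 4.22). Its log2 values were 11.69, 11.59 and 11.68 on the CRB3-expressing arrays and 9.70, 9.84 and 9.68 on the vector control arrays. The groups lay far apart, and each was tight, with 11.66 ± 0.055 (SD, n = 3) against 9.74 ± 0.088 (SD, n = 3). limma put the log2 fold change at 1.92 ± 0.069 (SE), with an adjusted p of 1.41e-06, the 29th highest of 19775 genes. A probe set was called where its adjusted p was under 0.05 and its fold change above 1.5, the thresholds of the study. A value from a whole culture cannot tell a higher MUC1 level in every cell from a larger share of cells that carry it. The replicates came from RNA isolated in triplicate, and nothing in the labels or methods tells whether they were separate infections, so the p-values measure the spread between these samples.

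The other MUC1 probe sets were called higher as well. In 207847_s_at the log2 values were 10.55, 10.54 and 11.55 in CRB3-expressing cells and 9.61, 8.66 and 9.30 in vector control cells, which gave 1.70 ± 0.30 (SE) as log2 fold change, at an adjusted p of 0.0162. The groups did not overlap, but the spread was wide in both (SD 0.58 and 0.48, n = 3). In 211695_x_at they were 7.81, 7.96 and 8.36 against 6.63, 6.43 and 6.48, or 1.53 ± 0.13 (SE) at an adjusted p of 0.000261. CRB3-expressing replicate 3 was the highest of its group in these 2 probe sets, by deviations of 0.67 and 0.32 from the group mean, and lay only 0.027 above the mean in the brightest one.

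No difference between the 3 log2 fold changes of MUC1 was detectable with these arrays. Of the 3 pairs of probe sets, the largest difference of change was 0.39, between 213693_s_at and 211695_x_at (two-sided exact permutation test over 6 arrays, p = 0.20, adjusted p = 0.60). With 3 against 3 arrays this test cannot go below 0.10, and it was added after the values were seen. All MUC1 probe sets end in _s_at or _x_at, the maker's mark for probes that match several transcripts, so they do not separate the many splice forms of MUC1 and may share some signal with other sequences. When each probe set kept its own variance, without limma's empirical Bayes step, 207847_s_at (adjusted p = 0.224) and 211695_x_at (adjusted p = 0.0584) were not called, and with a mean-variance trend and robust prior 207847_s_at was not (adjusted p = 0.111). Nor was 207847_s_at when limma tested against a 1.5-fold change (treat, adjusted p = 0.480). The brightest probe set was called in every alternative that fitted it, and so was the mean over the MUC1 probe sets.

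**Figure D1:**
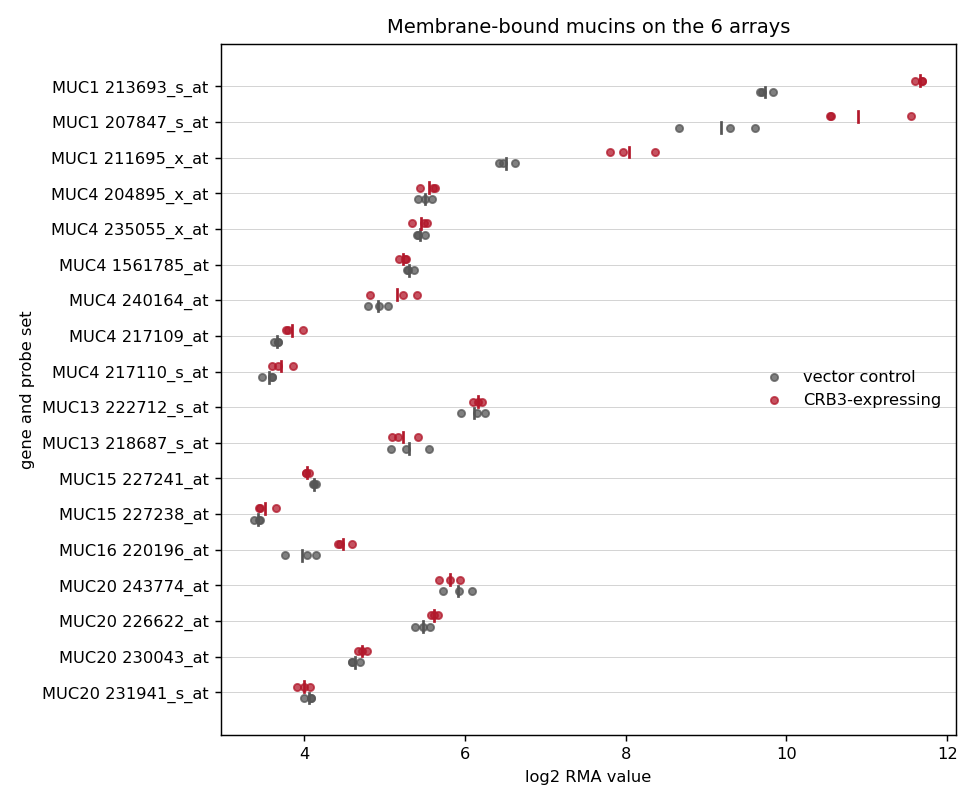
Log2 RMA value (x axis) of the 18 mucin probe sets (y axis) with 1 point per array, grey for vector control and red for CRB3-expressing, and a short line at each mean of 3. The groups are wide apart in the MUC1 probe sets, at 11.66 against 9.74 in the brightest, and close or overlapping in those of the other mucins.

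With a gene read in its brightest probe set, 1 of the 6 mucin genes was higher, 0 were lower and 5 were not called. Over all genes 1.43% were called higher and 0.465% lower. Among their 18 probe sets 3 were higher and 0 lower, against 0.948% and 0.363% of all probe sets, and the 3 are of 1 gene. The median log2 fold change of the 6 genes was 0.050, beside 0.0066 for all genes.

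MUC16 was the member with the next largest difference. Its single probe set, 220196_at, had log2 values of 4.60, 4.45 and 4.42 in CRB3-expressing cells and 4.04, 4.14 and 3.76 in vector control cells. Every CRB3-expressing array lay above every vector control array, with a log2 fold change of 0.51 (SE 0.10, 95% interval 0.28 to 0.74), or 1.42-fold. The adjusted p was 0.0303, so MUC16 passed the test but not the fold threshold, and was 1 of 2 members among the 3.37% of genes that were higher when no fold was required. Without vector control replicate 2 its log2 fold change was 0.59 and it was called. Its adjusted p was under 0.05 in 7 of 14 alternatives, with a range from 0.0126 to 0.214 against no change and 1 in a test against a 1.5-fold change (treat). The level is low in both groups, and no detection calls were used here.

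MUC4 has 6 probe sets, none of which was called. The brightest, 204895_x_at, had log2 values of 5.44, 5.63 and 5.61 in CRB3-expressing cells and 5.50, 5.41 and 5.59 in vector control cells, which overlap (difference 0.059 on the log2 scale, 95% interval up to 0.23, adjusted p = 0.767). The smallest p was that of 217109_at, at 3.80, 3.98 and 3.78 against 3.68, 3.63 and 3.68, with a log2 fold change of 0.19 and adjusted p = 0.239. Those arrays did not overlap, while in 1561785_at the CRB3-expressing arrays lay below the others by a small amount (-0.074), so the MUC4 probe sets did not share a direction.

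MUC20, which lies beside MUC4 on chromosome 3, has 4 probe sets. In 243774_at, the brightest, the log2 values were 5.68, 5.94 and 5.82 in CRB3-expressing cells and 5.73, 5.93 and 6.09 in vector control cells. The groups overlapped, with a log2 fold change of -0.11 (adjusted p = 0.680). In 226622_at they were 5.61, 5.58 and 5.67 against 5.48, 5.56 and 5.38, which do not overlap, with a log2 fold change of 0.15 (adjusted p = 0.342). The other 2 had log2 fold changes of 0.095 and -0.059.

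MUC13 and MUC15, with 2 probe sets each, were not called either. For MUC13, 222712_s_at had log2 values of 6.10, 6.16 and 6.22 in CRB3-expressing cells and 6.25, 6.15 and 5.95 in vector control cells, a log2 fold change of 0.041 (adjusted p = 0.866), and 218687_s_at had one of -0.074. For MUC15, 227241_at had 4.02, 4.03 and 4.07 against 4.11, 4.14 and 4.13, a separation without overlap but of only -0.090 on the log2 scale (adjusted p = 0.503), and 227238_at had 0.093. Of the 15 probe sets outside MUC1, the groups did not overlap in 5, 3 with CRB3-expressing arrays above and 2 below, while 21.8% of all probe sets did not overlap.

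**Figure D2:**
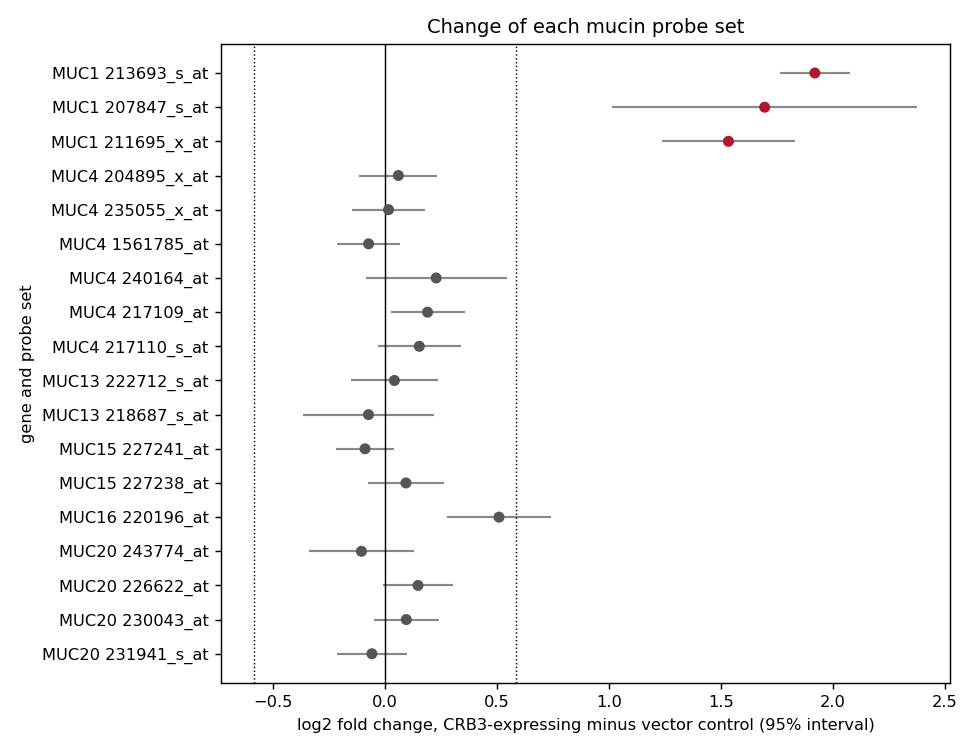
Log2 fold change (x axis, CRB3-expressing minus vector control) with its 95% interval from limma for each mucin probe set (y axis), red where called; dotted lines mark a 1.5-fold change in each direction. The 3 MUC1 probe sets lie at 1.53 to 1.92, MUC16 at 0.51, and the other 14 between -0.11 and 0.23.

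The intervals limit how large an unseen change could be. Over the 14 probe sets of MUC4, MUC13, MUC15 and MUC20 the log2 fold changes ran from -0.11 to 0.23, and their 95% intervals together from -0.37 to 0.54, the upper end being a 1.46-fold rise. An unadjusted p under 0.05 from limma was found for 1 of the 14, beside 16.3% of all probe sets. These bounds hold for the measured signal, which on dim probe sets can understate a change of the transcript.

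As a guide to that dimness, 30 probe sets of 15 genes of other tissues, such as ALB, INS, MYH6 and GFAP, had mean log2 values from 3.26 to 7.31, with a median of 5.16 and a 95th percentile of 6.82. That percentile rests on 1 gene, SFTPC, whose probe sets were the highest, from 6.49 to 7.31. MYH6 followed at 6.28 and TG at 5.88. All 15 probe sets of MUC4, MUC13, MUC15, MUC16 and MUC20 had means under the percentile, and the 3 of MUC1 lay above it. The mean of MUC13 222712_s_at, 6.14, was under that of MYH6 but above that of TG. The vector control mean of MUC1 211695_x_at, 6.51, was also under the percentile, though above MYH6. Those of 207847_s_at and 213693_s_at were 9.19 and 9.74. Probes differ in how strongly they bind, so these levels do not rank the mucins by transcript.

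**Figure D3:**
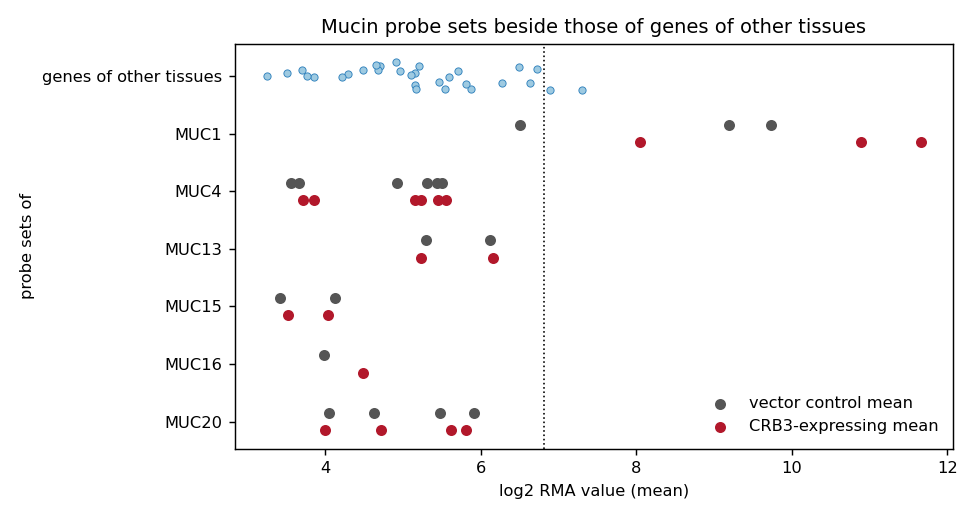
Mean log2 RMA values (x axis) of the probe sets of genes of other tissues (blue, over all 6 arrays, 30 probe sets) and of each mucin (y axis) in vector control (grey) and CRB3-expressing cells (red); heights within a row carry no value, and the dotted line is the 95th percentile of the blue points, 6.82. Only MUC1 has probe sets to the right of the line.

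The change of MUC1 was set against that of each other member by taking, on every array, the MUC1 value minus that of the other gene. The signal of the other member was not shown to be above background in any pair, so these are differences of signal and not of transcript. Differences of change ran from 1.41 for MUC16 to 2.03 for MUC20, and in each of the 5 pairs all 3 CRB3-expressing arrays lay above all 3 vector control arrays. Each pair had p = 0.10 by the two-sided exact permutation test (adjusted p = 0.10 over 5 pairs), which is the smallest value that 3 against 3 arrays can give.

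None of the measured chromosomal neighbours of the mucins was called. In RefSeq MUC1 spans 7092 bases at chr1:155185824-155192915 (GRCh38.p14), and of the 3 nearest measured genes on each side 0 of 6 were called, with log2 fold changes from -0.16 to 0.11 and 95% intervals within -0.30 and 0.31. The genes flanking it directly, TRIM46 and THBS3, had 0.11 and 0.0037. Over all 6 mucins, 30 neighbours that are no members were read and 0 were called, while 5 had an unadjusted p under 0.05 from limma, beside 18.8% of all genes. HEG1, a transmembrane protein with a mucin-like region that lies next to MUC13, was the one with an adjusted p under 0.05 (log2 fold change 0.34, adjusted p = 0.0294, 1.27-fold), and is named after its values were seen.

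**Figure D4:**
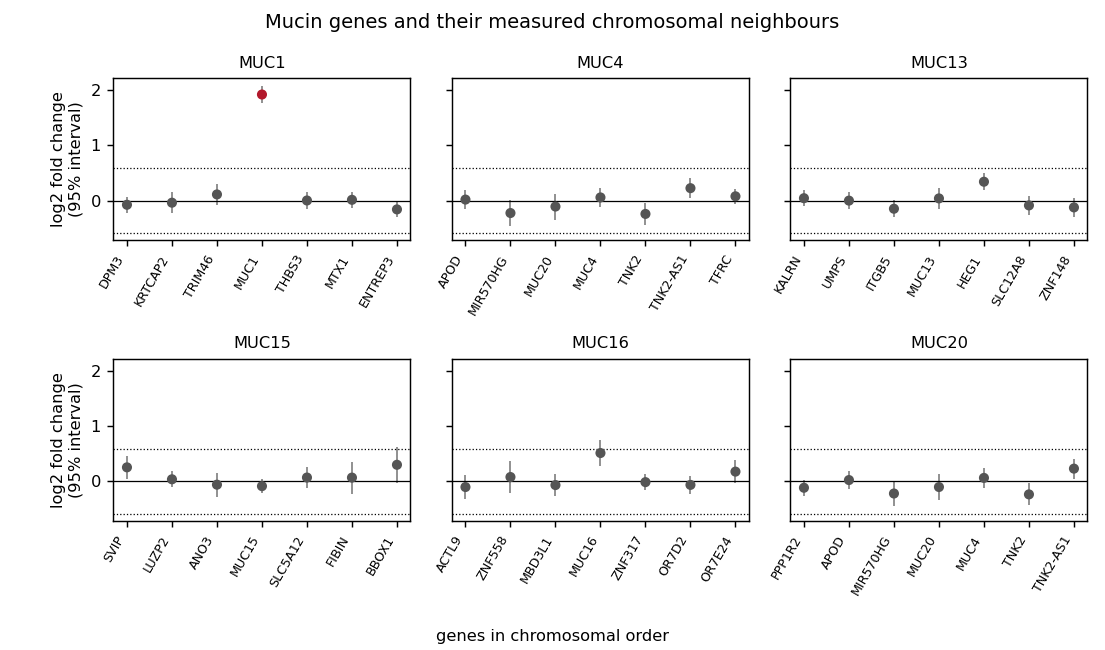
Log2 fold change (y axis, CRB3-expressing minus vector control, bars are 95% intervals from limma) of each mucin, at the centre of its panel, and of up to 3 measured genes on each side in chromosomal order (x axis); red points were called and dotted lines mark a 1.5-fold change. MUC1 stands at 1.92 among neighbours between -0.16 and 0.11.

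The genes whose pattern over the 6 arrays was most like that of MUC1 were GRHL3, CA2, ANKRD2, CGN and SLC44A2. Likeness was the Euclidean distance between the 6 log2 values of a gene, each minus its own mean, and those of MUC1, and it ran from 0.18 for GRHL3 to 0.28 for SLC44A2. GRHL3, a grainyhead transcription factor of epithelial barriers, had log2 values of 8.91, 8.94 and 8.96 in CRB3-expressing cells and 7.13, 7.07 and 7.03 in vector control cells, and a log2 fold change of 1.86. CA2 is a carbonic anhydrase, CGN is cingulin of the tight junction and SLC44A2 is a choline transporter-like protein. Their log2 fold changes were 1.82, 2.09 and 2.01, and that of ANKRD2, an ankyrin repeat protein, was 1.89.

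Around the mucins, 7 lists held 100 further genes of mucin biology, of which 92 were measured in a probe set with 1 symbol. Of these, 8 were higher and 1 was lower, where 1.43% and 0.465% of all genes were, and the median log2 fold change was 0.042. The counts of single lists below rest on few genes and are to be read against the same shares. The lists were chosen with earlier results of these data known. The counts therefore cannot show an excess among genes of mucin biology. An unadjusted p under 0.05 from limma was found for 18.8% of all genes. It was found for 3 of 8 mucin-like surface glycoproteins and 10 of 27 glycosylation enzymes. It was also found for 11 of 16 receptors and binding partners and 12 of 22 transcription factors. Of the other transmembrane mucins MUC3A, MUC12, MUC17 and EMCN, 0 of 4 were called, the smallest p-values being those of MUC12 (log2 fold change 0.12) and MUC17 (0.13). An unadjusted p under 0.05 from limma was found for 0 of the 4. MUC21 and MUC22 were not analysed here. Of 7 secreted mucin genes, which include the gel-forming MUC2, MUC5AC, MUC5B and MUC6, 0 were called, with 0.21 for MUC2 (adjusted p = 0.176) and -0.12 for MUC5AC (adjusted p = 0.567). MUC2 was the 1 of the 7 with an unadjusted p under 0.05 from limma. The highest mean log2 value was 6.97 among the other transmembrane mucins and 7.07 among the secreted ones. Both are under the highest of the genes of other tissues, 7.31. The signal of these mucins was thus not shown to be above background.

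Of 8 mucin-like surface glycoproteins outside the MUC family, 2 were higher and 0 lower. CD24, a small, heavily glycosylated surface protein, stood at 13.82, 13.83 and 13.84 in CRB3-expressing cells and 11.36, 11.45 and 11.34 in vector control cells, a log2 fold change of 2.45 (SE 0.061), and its other 5 probe sets were called too. PODXL, the sialomucin podocalyxin, rose by 1.03 ± 0.069 (SE) on the log2 scale at an adjusted p of 6.04e-05, from 7.81, 7.87 and 7.99 in vector control cells to 8.92, 8.97 and 8.87. PDPN, podoplanin, had a log2 fold change of -0.46 with an adjusted p of 0.00966 and stayed short of a 1.5-fold change. The median of the 8 was 0.016.

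Of 27 measured genes in a list of glycosylation enzymes, most of which build the O-linked sugars of mucins, 1 was higher and 0 were lower, with a median log2 fold change of 0.0026. The one called was ST6GALNAC5, a sialyltransferase known mainly for its action on gangliosides, which are glycolipids, with log2 values of 7.40, 7.18 and 7.21 against 4.30, 4.36 and 4.08 in vector control cells, 3.02 ± 0.093 (SE) apart at an adjusted p of 5.83e-07. Its other probe sets gave 1.38, called, and 0.080, not called, and its vector control mean of 4.25 is below the median of the genes of other tissues, 5.16, so this is a difference in signal from a level not shown to be above background. GCNT1, which branches the core of these sugars, had 0.39 (adjusted p = 0.00680), and B3GNT3, which extends them, had 0.32 (adjusted p = 0.0429), both under the fold threshold. None of the measured polypeptide GalNAc transferases of the list, which attach the first sugar, was called. The list does not hold the whole family. The smallest p-values among them were those of GALNT1 (log2 fold change -0.31, adjusted p = 0.0580) and GALNT3 (0.25, adjusted p = 0.0594), in opposite directions.

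Of 16 receptors and binding partners of mucins, 3 were higher and 0 lower, with a median log2 fold change of 0.19. ERBB3, a receptor of the EGFR family, had 8.08, 8.08 and 7.87 in CRB3-expressing cells and 7.07, 7.17 and 7.12 in vector control cells, a difference of 0.89 ± 0.076 (SE) at an adjusted p of 0.000259. A second ERBB3 probe set was called at 0.91, and the other 3, all dim, were not. MSLN, mesothelin, the surface partner of MUC16, had 8.70, 8.67 and 9.15 against 8.23, 7.90 and 8.12, a difference of 0.75 ± 0.14 (SE) at an adjusted p of 0.0174. JUP, plakoglobin, a junctional catenin, had 0.60 (SE 0.065), just past the fold threshold. EZR had 0.54 (adjusted p = 0.00157), LGALS3 0.32 (adjusted p = 0.0192) and ICAM1 0.39 (adjusted p = 0.0247), all under the fold threshold. EGFR, ERBB2 and MET were not called, at 0.0083, 0.29 and 0.15.

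Of 8 measured genes of mucin cleavage and release, 0 were called. The smallest p-values were those of PSENEN and NCSTN, subunits of gamma-secretase, which cuts the membrane stub of MUC1 after shedding, with log2 fold changes of 0.16 (adjusted p = 0.275) and 0.13 (adjusted p = 0.363). The sheddase ADAM17 had 0.086 and the membrane protease MMP14 had -0.081. PSENEN was the 1 of the 8 with an unadjusted p under 0.05 from limma.

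Of 22 measured transcription factors tied to mucin or epithelial genes, 2 were higher and 1 was lower, with a median log2 fold change of 0.15. ELF3, an ETS factor of epithelia, had 7.72, 7.59 and 7.83 in CRB3-expressing cells and 6.53, 6.81 and 6.17 in vector control cells, which is 1.21 ± 0.14 (SE) apart, at an adjusted p of 0.00179. KLF4, a zinc finger factor of epithelial differentiation, had 8.70, 8.73 and 8.51 against 7.60, 7.78 and 7.89, which is 0.89 ± 0.093 (SE) apart, at an adjusted p of 0.000862. ETV4, also called PEA3, fell by 0.60 on the log2 scale (SE 0.12, adjusted p = 0.0252), close to the fold threshold, and its second probe set (-0.52) was not called. GATA3 had 0.36 (adjusted p = 0.0252), under the fold threshold.

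**Figure D5:**
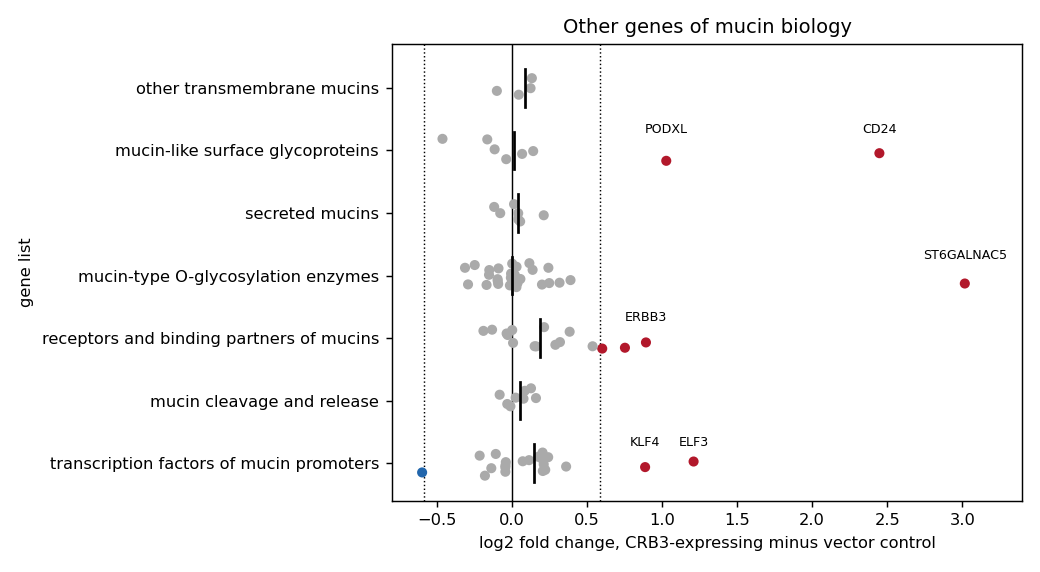
Log2 fold change (x axis, CRB3-expressing minus vector control) of the 92 measured genes of 7 lists of mucin biology (y axis); with 1 point per gene, coloured red if higher, blue if lower and grey if not called, black bars are list medians, and dotted lines mark a 1.5-fold change. CD24 at 2.45 and ST6GALNAC5 at 3.02, the latter with a vector control signal not shown to be above background, stand far from their lists, whose medians are 0.016 and 0.0026.

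CRB3 itself stood at 12.16, 12.00 and 12.19 on the CRB3-expressing arrays and 7.90, 7.59 and 7.85 on the vector control arrays. Array medians lay between 5.84 and 5.88, and arrays correlated over probe sets at a Pearson's r of 0.997 to 0.998 within groups and 0.994 to 0.996 between them. Of 6 measured mammary epithelial markers 3 were higher, KRT14, CDH1 and KRT8, with log2 fold changes of 1.83, 1.10 and 1.08. Over all genes 1.43% were called higher. In 5 of the 6 markers the unadjusted p from limma was under 0.05, beside 18.8% of all genes. KRT18 (0.36, adjusted p = 0.0110) and EPCAM (0.38, adjusted p = 0.0148) were under the fold threshold. KRT5 had -0.040 (adjusted p = 0.812). The summed log2 values of the 6 were 74.2 to 74.8 in CRB3-expressing and 69.5 to 69.8 in vector control cells. Of 6 fibroblast markers, summing to 34.0 to 34.3 and 34.7 to 35.2, 1 was lower, DCN (-0.76), beside 0.465% of all genes. COL1A1 was not called, and DCN was the 1 of the 6 with an unadjusted p under 0.05 from limma. A second DCN probe set was called at -0.81, and another, at -0.42 (adjusted p = 0.0118), was under the fold threshold. The remaining DCN probe sets, dim with means from 3.64 to 4.79, had log2 fold changes from -0.11 to 0.19 and were not called. None of 4 endothelial, 4 leukocyte and 4 adipocyte markers was called or had an unadjusted p under 0.05 from limma, with sums of 21.4 to 22.0, 21.3 to 22.2 and 17.4 to 17.8 in CRB3-expressing cells and 21.4 to 21.5, 21.7 to 21.9 and 17.5 to 17.9 in vector control cells. The part of these differences in the MUC1 result was not tested.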

How the data were processed

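Total RNA of 3 CRB3-expressing and 3 vector control cultures was hybridized to Affymetrix Human Genome U133 Plus arrays. The authors background-corrected and normalized them by Robust Multichip Average in R, and the deposited values are log2 expression, 1 per probe set and array, used without change. Tool versions are not given in the sources used here, and no detection calls were used. Groups and replicate numbers came from the labels.

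All 54613 probe sets other than the 62 array controls were fitted with limma 3.58.1 in R 4.3.3 (lmFit, eBayes), with Benjamini-Hochberg adjustment over them. A gene was read in its brightest probe set with 1 symbol. All 18 mucin probe sets kept their symbol through Entrez identifiers in RefSeq genes of GRCh38.p14. The steps were tested on simulated data. Members and gene lists were chosen with earlier results of these data known. Named were all members, CRB3, up to 4 called genes per list (otherwise the 2 smallest p-values) and the 5 genes most like MUC1, and genes named beyond this rule were chosen after their values were seen. Alternatives covered the replicate block, variance, normalization, dim probe sets, weights, thresholds, the probe set of a gene and leaving out each array. The number of arrays limits the precision.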

Additional observations from a re-analysis of the deposited data

How the results depend on the processing

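MUC1 kept its direction and its call under each of 16 alternatives. Its log2 fold change was 1.72 as the mean over its probe sets. The other alternatives used its brightest probe set, with a highest value of 1.97. The labels do not tell whether the replicate numbers pair the arrays. Deviations of same-numbered arrays correlated at -0.085, 0.064 and 0.029, and those of differently numbered arrays at -0.19 to 0.16. So few arrays cannot decide it. With the replicate block, 374 genes and 710 probe sets were called, against 375 and 716, and no call of a mucin changed. The count of mucin genes called was 2 with no fold threshold, 1 to 2 when an array was left out, and 0 without _x_at and _s_at probe sets, an alternative that removes all of MUC1. Called mucin probe sets, 3 as reported, were 1 with no empirical Bayes step, 2 by treat and with the mean-variance trend, 4 with no fold threshold, 3 to 4 when an array was left out (4 without vector control replicate 2) and 0 without _x_at and _s_at probe sets. Members that were not called changed sign in some settings: MUC4 235055_x_at (0.015) ran from -0.022 to 0.072 when an array was left out, MUC13 222712_s_at from -0.044 to 0.11 and 218687_s_at from -0.19 to 0.054, and as means over probe sets MUC13, MUC15 and MUC20 had -0.016, 0.0017 and 0.019.

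Genes of the 7 lists called higher were 8, against 5 with no empirical Bayes step, 14 with no fold threshold, 4 above 2-fold, 3 by treat and 3 without _x_at and _s_at probe sets. The 1 called lower, ETV4, was 0 with no empirical Bayes step, above 2-fold, by treat, with the probe set of smallest p and with the mean over probe sets, 0 to 1 when an array was left out, and 2 with no fold threshold. Over all genes 220 were called with no empirical Bayes step, 1017 with no fold threshold, 131 above 2-fold and 113 by treat, and over all probe sets 379, 1985, 240 and 202, and 439 without _x_at and _s_at probe sets. The causes were not tested. Signal near that of genes of other tissues limits what can be seen for the members other than MUC1.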
